A study of Mus musculus with 6 samples.

Results

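The transcripts described here come from ultraconserved regions, stretches of the genome that are identical between human, mouse and rat. An Arraystar microarray for mouse long noncoding RNAs carries 962 such probes, whose names are uc., a number and a strand sign, among 59709 probes that are not controls. They form 481 regions, each with 1 probe for the + strand and 1 for the - strand. Names of the UCSC gene catalog, which also begin with uc, were left out. The sources used here do not say which genome's orientation the signs follow, and neither positions nor sequences of the regions were at hand, so none are printed. Transcripts of regions that stand on the topic lists at the end are given by their probe identifier (CUST_, a number and PI426073487) and, where known, the host gene.

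Ultraconserved regions lie between genes, in introns, or across exons of genes, many of which encode RNA-binding proteins or developmental transcription factors. Transcription from them can run in either direction, and some of the regions within splicing-factor genes span exons whose inclusion sends the host message to nonsense-mediated decay. A probe in such a region can therefore bind an RNA of its own or the host transcript, and these cannot be told apart here. Host genes are named below for some regions only, from background knowledge. No theme among the named genes was tested.

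Cardiac biopsies came from mice of the strain C56BL7 by the sample records, which list every animal as a female of 12 months. Ischemic preconditioning (IPC), 4 rounds in which a suture closed and released the left coronary artery followed by 30 min of reperfusion, was applied to mice 004 and 008. The records give 4 min for each closure, which is shorter than in the published methods, and the methods name animals of either sex. From each IPC mouse the area at risk (AAR), the tissue next to the ligature, and the remote myocardium (RM), cut from the right ventricle, were hybridized, so that AAR and RM differ in ventricle as well as in ischemia. AAR biopsies of the sham-operated mice 012 and 013 completed the 3 groups of 2 arrays. No transgene or deletion was carried by any group. Each biopsy holds all cell types of the tissue, and fewer cells of a type cannot be told apart from less RNA per cell. Of the array's probe names 116 matched a RefSeq transcript (GRCm38.p6), and none of 18 cardiac marker genes looked up was among these, so the tissue labels were not checked here. The paper lists Xist among the long noncoding RNAs most increased in the AAR over the RM. Whether the AAR and RM arrays share mouse and sex, as the records have it, was not checked here either.

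Signal over background set what could be measured. Of the 59709 probes, 61.0% to 80.5% were well above background per array, a flag that the scanner software gives to spots clearly brighter than their surroundings. The array of sham mouse 012 had the lowest share. All IPC arrays shared slide 1 and both sham arrays slide 2, so slide and sham operation cannot be told apart. Levels are log2 of the processed signal after quantile normalization over the 6 arrays, which gives every array the same overall distribution and hides any shift common to all probes. Levels of 2 different probes are not compared, because probes differ in affinity.

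Ultraconserved region transcripts were seen less often than other transcripts of the array in every biopsy. In the IPC AAR, 407 of the 962 probes were well above background in mouse 004 and 425 in mouse 008. In the IPC RM, 518 were above it in mouse 004 and 556 in mouse 008. Sham mice 012 and 013 had 304 and 429 in their AAR. Both RM arrays thus lay above all AAR arrays, and sham mouse 012 lay lowest. As shares these are 42.3%, 44.2%, 53.8%, 57.8%, 31.6% and 44.6%, against 68.0%, 70.6%, 78.4%, 80.5%, 61.0% and 72.2% of all probes on the same arrays. The order of the arrays was the same in both sets.

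**Figure D1:**
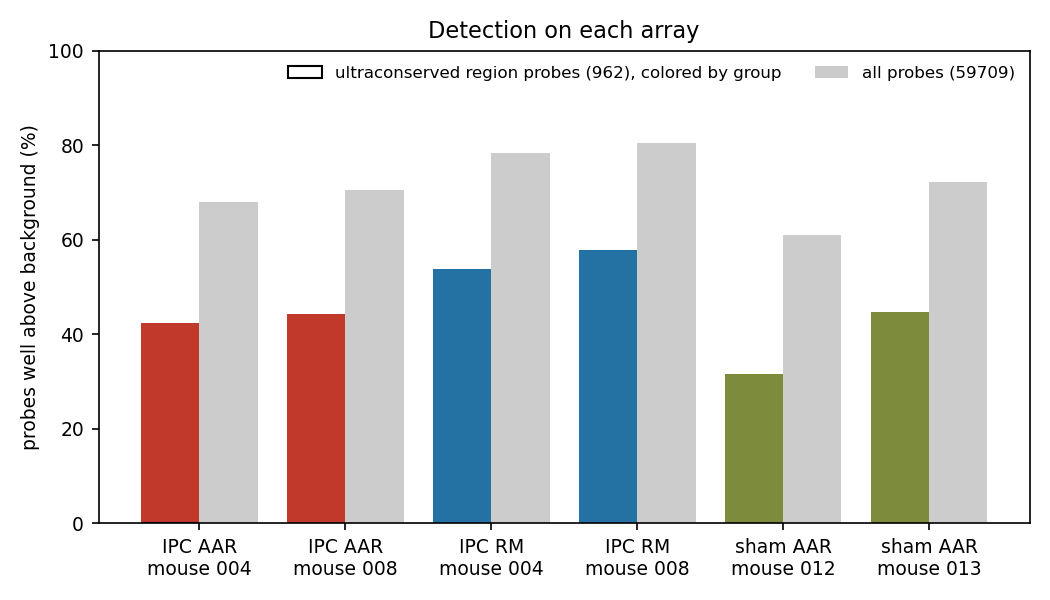
Share of probes well above background on each of the 6 arrays, in percent, with 1 colored bar per array for the 962 probes of ultraconserved regions and a gray bar for all 59709 probes. Every colored bar is shorter than the gray bar beside it, and both are tallest on the 2 IPC RM arrays.

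The strands were seen about equally often. On the IPC AAR arrays 198 and 203 probes of the + strand and 209 and 222 of the - strand were well above background. On the IPC RM arrays the counts were 257 and 277 for the + strand and 261 and 279 for the - strand, and on the sham arrays 142 and 211 against 162 and 218. The - strand was ahead on all 6 arrays, by 2 to 20 probes. No test was made over these counts, since probes of 1 array share its hybridization.

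A set of 273 transcripts (28.4%) was well above background on all 6 arrays, 130 from the + strand and 143 from the - strand, against 57.9% of all probes. At the other end, 35.2% of the transcripts were above it on no array, against 15.2% of all probes. Both arrays of a group showed 360 transcripts in the IPC AAR, 498 in the IPC RM and 288 in the sham AAR. With the software's weaker flag, a signal positive and significant against background, these became 573, 691 and 506.

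Detection differed between biopsies mainly in 1 direction. There were 73 transcripts (7.59%) seen on both RM arrays and neither IPC AAR array, against 6.77% of all probes. Only uc.363+ (0.104%) showed the opposite, against 0.162% of all probes. The RM arrays showed 90 transcripts (9.36%) that neither sham array did, against 6.53% of all probes, and 0 the other way, against 0.0536%. Between the AAR groups, 19 (1.98%) were seen on both IPC and neither sham array, against 1.78% of all probes, and 8 (0.832%) the other way, against 0.921%. These shares moved with the share of all probes detected per array, and the part of that difference in them was not tested.

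Within a region, detection often held for a single strand. Both strands were well above background on all 6 arrays in 51 regions (10.6%), and neither strand was on any array in 72 (15.0%). In 34 regions (7.07%) the + strand was above background on all 6 arrays and the - strand on none, and in 40 (8.32%) the reverse held. These 74 one-strand regions became 45 with the weaker flag. For comparison, 2676 other long intergenic RNA names of the array have a probe on each strand. Of these, 21.2% had both strands on all arrays, 7.81% the + strand alone, 10.8% the - strand alone and 6.50% neither.

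The one-strand regions with the strongest probe signal are shown with their levels in the order IPC AAR 004 and 008, IPC RM 004 and 008, sham AAR 012 and 013, an order kept below. The transcript uc.84- had levels of 14.24, 14.02, 14.54, 14.74, 13.58 and 13.34. The transcript uc.465- had 13.29, 13.27, 13.24, 13.33, 13.43 and 13.27. The transcript uc.129+, from a region of Mbnl1, a regulator of alternative splicing in muscle, had 11.52, 11.59, 9.80, 9.83, 10.74 and 10.78. Each of the 3 was well above background throughout, whereas the opposite strand was so on no array. The level of uc.465- varied over 0.20 log2 units, and that of uc.129+ separated the 3 groups without overlap.

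By probe signal, which does not rank transcripts by abundance, the 5 brightest were uc.420-, uc.84-, uc.465-, uc.268- and uc.141-, with 14.34, 14.08, 13.30, 13.20 and 13.14 on the log2 scale. The levels of uc.420- were 13.47, 13.49, 14.78, 14.74, 14.61 and 14.98, so that both IPC AAR arrays lay below the other 4. Its change from RM to AAR was -1.28 (limma, SE 0.073, adjusted p = 0.00243). Scaling each array to its 75th percentile in place of quantile normalization brought this to -0.47, under the 2-fold limit, and gave 0.37, 0.68 and 0.47 for uc.84-, uc.465- and uc.141-, whose values were -0.51, -0.0025 and -0.19. No direction is therefore given for those 3.

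Replicates lay close together in the IPC mice and further apart in the sham mice. The median difference between the 2 mice of a group was 0.17 log2 units in the IPC AAR over 358 transcripts above background in both, 0.17 in the IPC RM over 497 and 0.44 in the sham AAR over 287. It exceeded 2-fold for 4.75%, 3.22% and 12.2% of them.

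IPC AAR was first compared with IPC RM, the contrast between preconditioned and remote tissue of, by the sample titles, the same hearts. Transcripts entered the test if both arrays of either group showed them well above background, and a transcript was called when the adjusted p of limma over all probes tested was below 0.05 and the fold change above 2. Of 497 transcripts tested, 21 (4.23%) were higher and 66 (13.3%) lower in the AAR. Over all 46232 probes tested, 7.29% were higher and 13.3% lower. The share of lower calls was that of the array as a whole, and the share of higher calls lay below it. Of the other 465 transcripts, 462 were too dim to be tested and 3 had an outlier spot on an array.

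The filter admits transcripts seen in the RM alone, which can add lower calls. In 30 of the 66 lower calls neither AAR array was well above background, and in 1 of the 21 higher calls neither RM array was. Among the 355 that were well above background on all 4 arrays, 19 (5.35%) were higher and 29 (8.17%) lower, against 8.18% and 10.1% of all probes that passed the same condition. The median change was 0.21 log2 units over the 497 transcripts and 0.20 over all probes tested. Scaling to the 75th percentile raised the latter to 0.33. It moved bright transcripts further, such as uc.420- from -1.28 to -0.47 and uc.465- from -0.0025 to 0.68. Changes are therefore read against shifts of these sizes between normalizations. By strand, 12 + and 9 - strand transcripts were higher and 32 and 34 lower. Among those above background on all 4 arrays these became 11 and 8 higher and 11 and 18 lower.

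**Figure D2:**
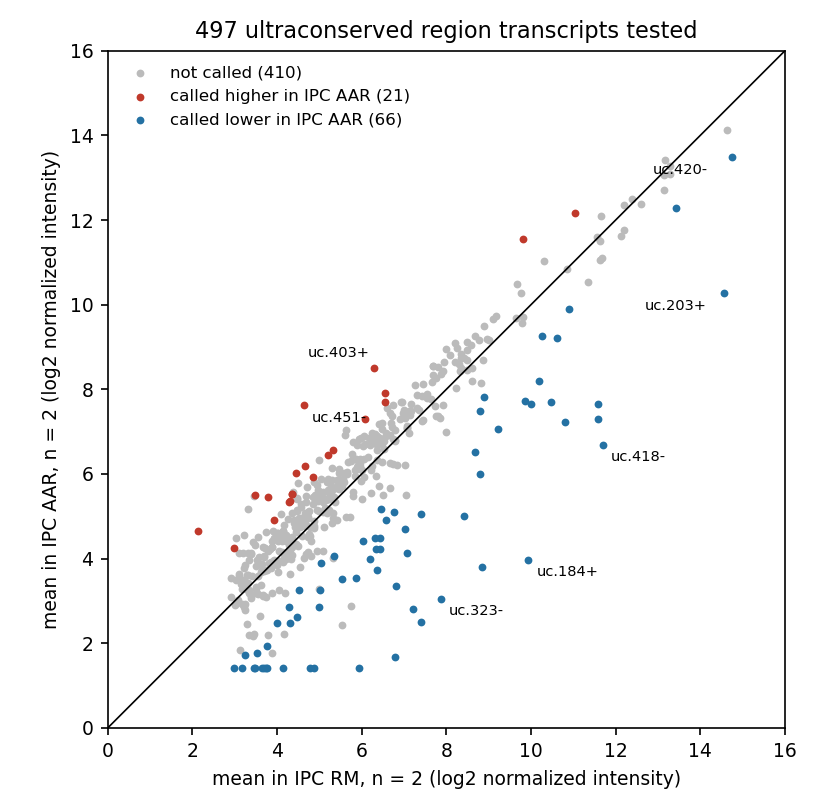
Mean level in the IPC AAR (vertical axis) against that in the IPC RM (horizontal axis), both in log2 normalized intensity with 2 arrays per group, 1 point for each of the 497 transcripts tested. The line marks equal levels; 66 points called lower in the AAR lie well below it, some at the floor of the array, and 21 called higher lie above it.

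The number of calls rested on few arrays. With an array left out, 1 group is a single array, whose spread is taken from the group that still has 2, here and below, so these counts also depend on which pair gives the spread. The count was 87 with all 4, 140 without the AAR array of mouse 008, 46 without the RM array of mouse 004 and 52 without that of mouse 008. The higher calls ranged from 5 without RM 004 and 7 without RM 008 to 41 without AAR 004 and 57 without AAR 008, and the lower calls fell to 41 without RM 004. In each of these fits the total number of calls over all probes tested moved in the same direction as the 87, so this is not particular to these transcripts. Within 2 arrays per group no exact permutation test can go below p = 0.333, so the calls lean on limma's pooling of the spread across probes.

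Both strands of a region of Cpeb4 were among the 10 transcripts with the most negative fitted change in the AAR. The gene encodes a protein that binds cytoplasmic polyadenylation elements in messages. For 5 of the 10 neither AAR array was well above background, so that their place in this order is not established, and uc.366- outside the 10 fell 15.3-fold, more than any of their bounds. The levels of the Cpeb4 region's + strand (CUST_182_PI426073487) were 3.89 and 4.05 in the AAR, 9.96 and 9.90 in the RM and 6.51 and 9.63 in the sham AAR. All sham and RM arrays lay above both IPC AAR arrays, where 1 of the 2 was well above background. The change was -5.96 (SE 0.098, adjusted p = 0.000723 by limma). Its - strand (CUST_663_PI426073487) was at 1.41 and 1.40, the array floor, in the AAR, at 6.12 and 5.73 in the RM and at 1.40 and 5.34 in the sham AAR. It was at least 3.78-fold lower in the AAR than in the RM (adjusted p = 0.00124 by limma), a bound set by the dimmest signals that were well above background. Sham mouse 012 lay with the AAR and sham mouse 013 with the RM.

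The + strand of a region of Srsf3 (CUST_187_PI426073487), a splicing factor, had levels of 4.79 and 2.83 in the AAR, 8.92 and 8.76 in the RM and 1.35 and 7.82 in the sham AAR. Its change was -5.03 (SE 0.75, adjusted p = 0.0147 by limma), with mouse 008 below background in the AAR. The call was lost without either RM array, at adjusted p = 0.114 and 0.0971 in a range from 0.000227 to 0.149 over all alternatives. Of the sham arrays, mouse 012 lay below both AAR arrays and mouse 013 between the AAR and the RM.

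A further region has been studied in cardiac hypertrophy. The levels of its - strand (CUST_802_PI426073487) were 2.72 and 3.38 in the AAR, 7.97 and 7.77 in the RM and 4.58 and 7.94 in the sham AAR. It was at least 14.6-fold lower in the AAR than in the RM (adjusted p = 0.00243 by limma), and the AAR and the array of sham mouse 012 were not well above background. Its + strand (CUST_321_PI426073487) had 4.67 and 5.27 in the AAR and 5.66 and 5.62 in the RM, a change of -0.67 that was not called (SE 0.24, adjusted p = 0.0975).

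Bright transcripts fell as well. The levels of uc.203+ were 10.26 and 10.27 in the AAR, 14.52 and 14.60 in the RM and 13.37 and 14.29 in the sham AAR, so that both IPC AAR arrays lay below the other 4. The change from RM to AAR was -4.29 (SE 0.078, adjusted p = 0.000723 by limma). The transcript uc.418- had 6.56 and 6.82 in the AAR, 11.70 and 11.68 in the RM and 9.69 and 11.71 in the sham AAR, a change of -5.00 (SE 0.12). The transcript uc.419-, from a region of Srsf1, a founding member of the SR family of splicing factors, had 7.25 and 7.35 in the AAR, 11.63 and 11.54 in the RM and 9.79 and 11.44 in the sham AAR. Its change was -4.29 (SE 0.087). In each case the sham array of mouse 013 was close to the RM and that of mouse 012 lay between.

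The 3 of the 10 not yet described were shown above background by neither IPC AAR array. The level of uc.36+ was 6.80 and 6.77 in the RM, at least 6.88-fold above the AAR. That of uc.265+ was 7.39 and 7.42, at least 10.6-fold above it, and that of uc.333- was 7.30 and 7.14, at least 9.27-fold above it. Among all 66 lower calls, the AAR was not well above background on either array for 30, on 1 array for 7 and on none for 29. The folds of the first 30 are therefore bounds, and 12 of the 30 have no bound above 1.

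The calls of the Cpeb4 region's + strand, uc.418-, uc.333-, uc.203+ and uc.419- held under every alternative that was run on them. Those of uc.265+, the Srsf3 region's + strand and the - strand of the hypertrophy region were lost without RM 004, and the first 2 of these also without RM 008. A fit over all 6 arrays, in which the sham mice add to the spread, ended those of uc.36+, the Srsf3 region's + strand and the Cpeb4 region's - strand. Background correction by normexp with an offset of 50, which compresses dim signals, left 31 of the 87 calls and brought the Cpeb4 region's - strand to -0.95. Over all probes tested it lowered the share called from 20.6% to 10.9%.

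Higher levels in the AAR were smaller in size. The transcript uc.451- had levels of 7.56 and 7.69 in the AAR, 4.78 and 4.47 in the RM, and 8.11 and 7.32 in sham mice. The RM arrays lay below the other 4, and the level in the AAR was 7.99-fold that in the RM (SE 0.15 on the log2 scale, adjusted p = 0.00191 by limma). Its + strand was well above background on no array.

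The region uc.403 was higher on both strands. Levels of uc.403+ were 8.49 and 8.53 in the AAR, 6.40 and 6.20 in the RM and 7.30 and 7.26 in the sham AAR, 3 separate groups. The change was 2.21 (SE 0.11, adjusted p = 0.00181 by limma). Levels of uc.403- were 5.92 and 5.96 in the AAR, 4.61 and 5.06 in the RM and 5.04 and 5.03 in the sham AAR, 2.14-fold higher in the AAR than in the RM (adjusted p = 0.0194). For uc.129+ of Mbnl1, whose levels are given above, the change was 1.74 (SE 0.076, adjusted p = 0.00157).

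The other 7 of the 10 with the most positive fitted change were uc.363+, which was at least 3.45-fold higher, uc.243+ at 2.03, uc.62+ at 1.68, uc.29+ at 1.58, uc.213- at 1.54, uc.254+ at 1.36 and uc.416- at 1.28 on the log2 scale. With the mouse as a replicate block, uc.363+, uc.243+ and uc.416- were no longer called, at adjusted p of 0.0535, 0.0693 and 0.0760. Over all alternatives their adjusted p spanned 0.00914 to 0.0992, 0.00994 to 0.155 and 0.0417 to 0.163. Without RM 004 the calls of uc.363+, uc.62+, uc.29+, uc.213-, uc.254+ and uc.416- were lost, and without RM 008 those of the first 5 and of uc.243+. Leaving out either AAR array ended the calls of uc.243+ and uc.416-. Normexp brought all 7 under the 2-fold limit, to 0.52, 0.50, 0.53, 0.60, 0.61, 0.94 and 0.26 in the order listed. The methods' t-test ended the calls of uc.363+, uc.243+, uc.62+ and uc.416-. The fit over all 6 arrays ended those of uc.62+ and uc.416-, and the fit with no filter those of uc.243+ and uc.416-. The calls of uc.451-, uc.403+ and uc.129+ held under every alternative.

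**Figure D3:**
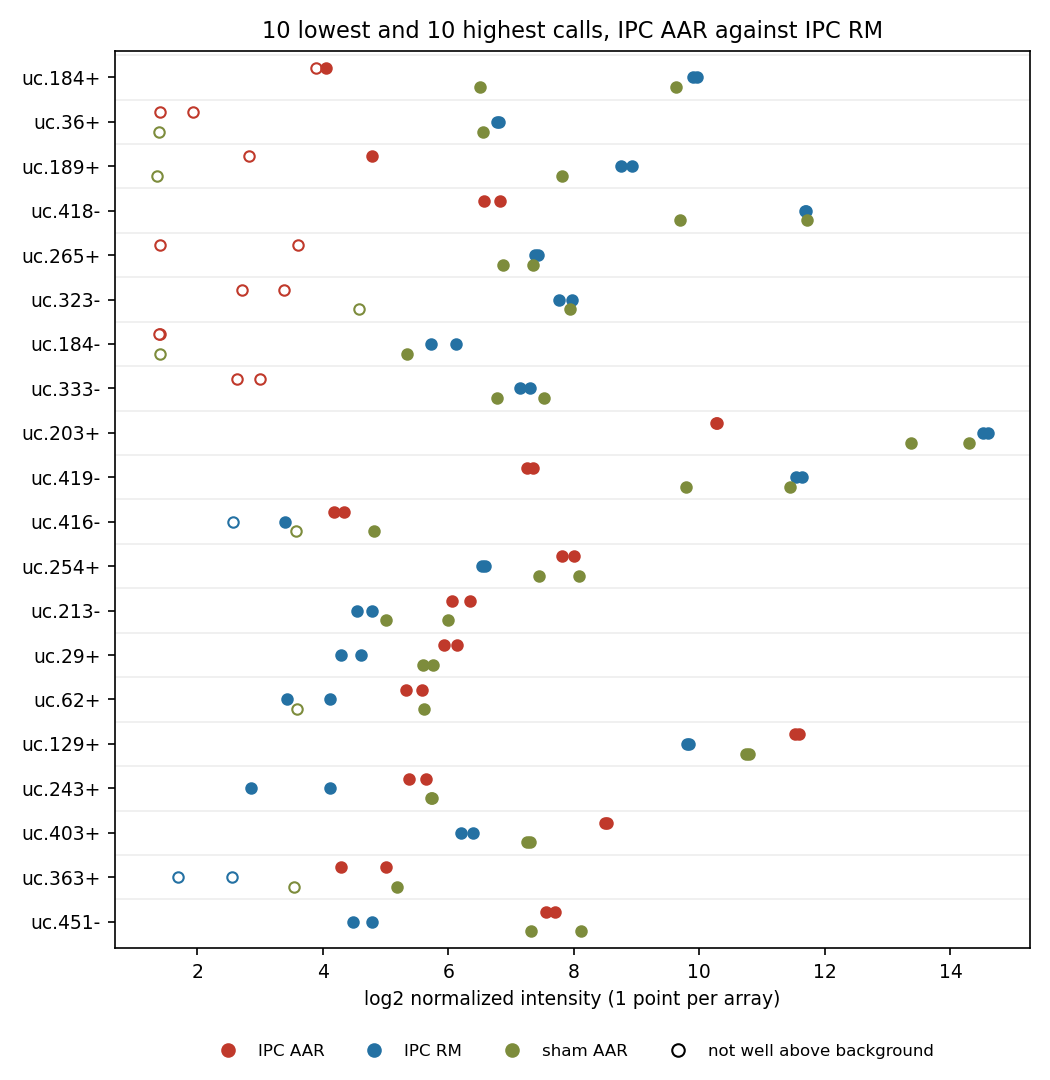
Levels of the 10 called transcripts with the most negative and the 10 with the most positive fitted change from IPC RM to IPC AAR, in log2 normalized intensity, 1 point per array colored by group and open where not well above background. In the upper 10 transcripts the AAR points lie left of the RM points, and the 2 sham points often lie far apart; in the lower 10 the AAR points lie right of the RM points.

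The sham arrays were not in the fit of these calls, although they were normalized together with the IPC arrays. Of the 66 transcripts lower in the AAR, 45 (68.2%) had both sham arrays above both IPC AAR arrays, against 84.0% of all probes called lower. The array of sham mouse 013 was nearer to the RM mean than to the AAR mean for 61 of them (92.4%, against 93.0% of all probes called lower). That of sham mouse 012 was so for 28 (42.4%, against 58.9% of all probes called lower). Mouse 012 was below mouse 013 for 61 (92.4%), against 89.4% of all probes called lower. Of the 20 higher transcripts with a value on both sham arrays, 11 had both of these below both IPC AAR arrays, against 2844 of 3366 probes called higher. Of the 20, 8 (40%) were nearer to the RM in mouse 012 and 10 (50%) in mouse 013, against 51.1% and 73.4% of all probes called higher. Mouse 012 also had the fewest probes above background, and the part of this in its lower levels was not tested.

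Both strands of a region could be compared in 140 regions, 1 strand in 217 and neither in 124. A call on at least 1 strand was made in 75 (21.0%) of the regions with a strand tested, and on both strands in 12 (8.57%) of the 140. Of the other long intergenic RNA names with a probe on each strand, 372 of 2326 had a call on at least 1 strand and 24 (2.04%) of 1176 on both. These shares were not tested against each other. Among the 12 regions called on both strands, 10 were lower (uc.37, uc.50, uc.101, uc.174, uc.185, uc.203, uc.359, uc.366, uc.455 and the Cpeb4 region). The region uc.403 was higher on both, and uc.62 was called in opposite directions. The strands uc.50+, uc.101+, uc.185+, uc.203-, uc.359-, uc.366+ and the Cpeb4 region's - strand were well above background on neither AAR array. They passed the filter through the RM alone, as did uc.62-. The shares of regions called on both strands were not compared among strands well above background on every AAR and RM array.

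Among the 10 regions, uc.174 is part of Matr3, a nuclear matrix protein that binds RNA. Levels of uc.174+ were 7.73 and 7.69 in the AAR and 10.49 and 10.47 in the RM, a change of -2.77 (SE 0.073). Those of uc.174- were 3.54 and 4.44 in the AAR and 6.26 and 6.13 in the RM, a change of -2.20 (SE 0.35), with mouse 004 below background in the AAR. No level of the AAR overlapped with the RM on either strand.

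The region uc.185 is part of Clk4, a kinase of splicing factors. Levels of uc.185- were 7.66 and 7.78 in the AAR and 9.86 and 9.87 in the RM, a change of -2.15 (SE 0.085, adjusted p = 0.00135 by limma). Its partner uc.185+ was at the floor in the AAR and at 3.69 and 3.85 in the RM, which gives no bound above 1. The region uc.455 is part of Rbm39, another splicing factor, and fell by 1.82 on the + strand and by 1.02 on the - strand on the log2 scale, with both strands above background throughout. The region uc.366 fell by 3.93 on the - strand, from 11.56 and 11.58 in the RM to 7.59 and 7.69 in the AAR, whereas uc.366+ was at the floor in the AAR and at 3.71 and 3.55 in the RM.

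The region uc.203 was called lower on both strands, on the - strand with a bound only. Its - strand had 3.83 and 3.25 in the AAR, neither well above background, 5.87 and 5.85 in the RM and 5.36 and 5.20 in the sham AAR. It was at least 3.62-fold lower in the AAR than in the RM (adjusted p = 0.00642 by limma). Both IPC AAR arrays lay below the other 4 on each strand.

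In uc.62 the strands were called in opposite directions, but the fall of the - strand has no measured size. Levels of uc.62+ were 5.33 and 5.59 in the AAR and 3.44 and 4.12 in the RM (change 1.68, SE 0.29). Levels of uc.62- were 1.41 and 2.46 in the AAR, not well above background, and 3.46 and 4.04 in the RM, with no bound above 1 for the fold. Neither call held without RM 004 or without RM 008.

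Whether a change differed between strands was tested on the difference between the + and the - level of a region within each array, in which the unequal affinity of the probes cancels. The fit was made over 1316 pairs with both strands tested, 140 of them ultraconserved regions. Among these, 22 (15.7%) were called, 10 with the + strand relatively higher in the AAR and 12 with it relatively lower, against 13.8% of all pairs. In 12 of the 22 a strand was not well above background on all 4 arrays. Among the 75 pairs that were, 10 (13.3%) were called, against 10.8% of all such pairs. The calls numbered 50 without AAR 008, 35 without AAR 004 and 0 without either RM array (limma, with 38 and 30 at an unadjusted p below 0.05). With the mouse as a replicate block there were 5.

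The largest strand difference among the 75 pairs above background on all 4 arrays was in uc.456, a region of Srsf6, another SR splicing factor. Levels of uc.456+ were 7.12 and 7.33 in the AAR, 10.82 and 10.80 in the RM and 10.31 and 11.08 in the sham AAR. Levels of uc.456- were 8.80 and 8.68 in the AAR, 8.23 and 8.48 in the RM, and 8.59 and 8.33 in sham mice. The + strand was lower in both IPC AAR arrays than in the other 4, while the - strand lay slightly higher there. The difference between strands changed by -3.97 (SE 0.24, adjusted p = 0.00686 by limma), and by the same amount with the block (adjusted p = 0.0470). Its adjusted p ranged from 0.00133 to 0.205 over 7 alternatives.

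In uc.419 of Srsf1 the - strand carried the change. Levels of uc.419+ were 5.70 and 5.39 in the AAR and 6.21 and 6.21 in the RM, a change of -0.66 beside the -4.29 of the - strand. The difference between strands changed by 3.62 (SE 0.24, adjusted p = 0.00810 by limma, and 0.0470 with the block). In uc.186, a region of Hnrnph1, a protein that binds G-rich RNA, levels of uc.186+ were 7.61 and 7.65 in the AAR and 6.89 and 6.60 in the RM. Levels of uc.186- were 6.41 and 6.63 in the AAR and 8.74 and 8.59 in the RM. The + strand was higher in the AAR by 0.89, under the 2-fold limit, and the - strand changed by -2.15. The difference changed by 3.03 (SE 0.20, adjusted p = 0.00810 by limma, and 0.0512 with the block).

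Similar patterns were found in uc.153, uc.28 and uc.418. The difference changed by -3.29 in uc.153 (SE 0.35), where the + strand fell by 2.34 and the - strand was at 0.94. In uc.28, a region of Srsf11, it changed by -3.09 (SE 0.40), with -2.21 on the + strand and 0.88 on the - strand. In uc.418 it changed by 3.47 (SE 0.57), with -5.00 on the - strand and -1.53 on the + strand, which was not called. With the block the adjusted p of these 3 was 0.0512, 0.0512 and 0.0771.

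Smaller changes of the difference were called in uc.324, at 1.84, and uc.46, a region of Hnrnpu, at 1.79, and were lost with the block (adjusted p = 0.0950 and 0.0775). Those of uc.394 at -1.30 and uc.467 at -1.19 were not called (adjusted p = 0.0505 and 0.333 by limma). The fall of uc.46- by 1.14 on the log2 scale, from 13.45 and 13.42 in the RM to 12.31 and 12.28 in the AAR, became -0.53 under scaling to the 75th percentile. Among pairs with a dim strand, uc.36 and the hypertrophy region had the largest values, -4.93 and 4.15, which depend on levels not well above background.

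**Figure D4:**
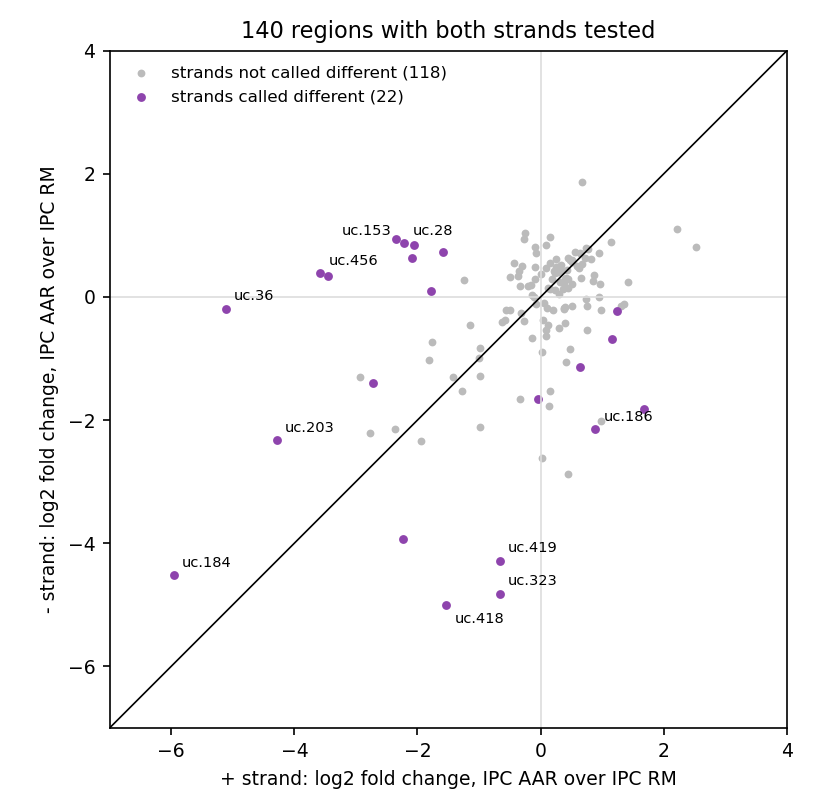
Log2 fold change from IPC RM to IPC AAR of the - strand (vertical axis) against that of the + strand (horizontal axis) for the 140 regions with both strands tested, 2 arrays per group. The line marks equal change; the 22 regions whose strands were called different lie away from it, with uc.456 and uc.153 above it and uc.419, uc.418 and uc.186 below.

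IPC AAR was next compared with sham AAR, the contrast between occluded and unoccluded tissue of the same site. Of 372 transcripts tested, 13 (3.49%) were higher and 11 (2.96%) lower in the IPC AAR, against 2.78% and 5.78% of all 40161 probes tested. The median change was 0.37 log2 units over the transcripts and 0.23 over all probes. In the fits with an array left out that follow, calls over all probes tested moved in the same direction as those of the transcripts. This includes the fits in which every call was lost. All 24 calls were lost in the limma fits without AAR 004 and without AAR 008, where 61 and 79 transcripts had an unadjusted p below 0.05. The number rose to 106 without sham 012 and was 20 without sham 013.

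Calls shared a pattern with the comparison above in the lower direction. The comparisons share the 2 IPC AAR arrays, so the values are given side by side and are not independent. The transcript uc.333- had 2.64 and 3.0 in the IPC AAR, neither well above background, and 6.78 and 7.52 in the sham AAR. It was at least 8.86-fold lower than in the sham AAR (adjusted p = 0.0184 by limma), and at least 9.27-fold lower than in the RM. The change from sham was -3.56 (SE 0.36, adjusted p = 0.0239) in uc.203+ and -3.47 (SE 0.32, adjusted p = 0.0220) in uc.456+, beside -4.29 and -3.58 from the RM. All 3 had both IPC AAR arrays below both sham arrays.

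The transcript uc.12- was at 3.72 and 3.74 in the IPC AAR, neither well above background, and at 5.99 and 6.50 in the sham AAR, at least 4.73-fold higher in the latter (adjusted p = 0.0219 by limma). The transcript uc.193-, from a region of Syncrip, an RNA-binding protein, had 7.59 and 7.71 in the IPC AAR, 10.03 and 9.97 in the RM and 9.34 and 9.63 in the sham AAR. Its change from sham was -1.83 (SE 0.18, adjusted p = 0.0234). The strand uc.203- was at least 2.43-fold lower than in the sham AAR (adjusted p = 0.0383), which made uc.203 the 1 region called on both strands here.

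Among the higher transcripts, uc.460- was well above background on all 6 arrays. It had 11.14 and 11.06 in the IPC AAR, 11.54 and 11.80 in the RM and 9.23 and 8.91 in the sham AAR. Both sham arrays lay below the 4 IPC arrays, and the change from sham was 2.03 (SE 0.18, adjusted p = 0.0211 by limma). The transcripts uc.230+, uc.13- and uc.316+ were not well above background on either sham array. Levels of uc.230+ were 4.42 and 4.77 in the IPC AAR against 2.46 and 2.39 in the sham AAR, at least 1.46-fold higher in the former. Levels of uc.316+ were 5.66 and 5.03 against 3.42 and 3.40, at least 2.45-fold higher, and those of uc.13- were 4.14 and 3.95 against 1.64 and 2.41, with no bound above 1. All IPC arrays were on the slide without sham arrays, a difference that cannot be told apart from the operation.

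**Figure D5:**
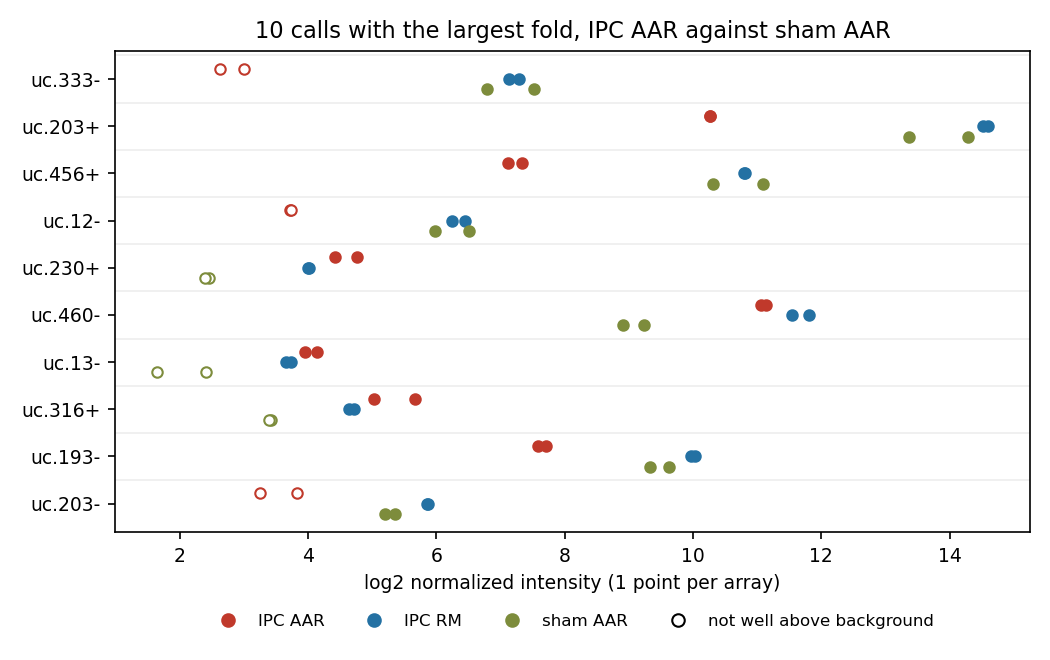
Levels of the 10 transcripts with the largest fold among those called between IPC AAR and sham AAR, in log2 normalized intensity, 1 point per array colored by group and open where not well above background. In uc.333-, uc.203+, uc.456+, uc.12-, uc.193- and uc.203- the IPC AAR points lie left of all others, and in uc.230+, uc.460-, uc.13- and uc.316+ the sham points do.

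IPC RM and sham AAR, which differ in ventricle, operation and slide, were compared last. Of 497 transcripts tested, 0 were called by limma, as for all 46061 probes tested (0%), and the methods' t-test also called 0. Before adjustment, 77 transcripts had a p below 0.05 in limma and 57 in the t-test. A fit over all 6 arrays called 9, of which uc.460- was named above (change 2.60 from sham), and 0.463% of all probes. Without sham 012 there were 58 calls and without sham 013 there were 108, and the 2 sham mice differed from each other more than the IPC mice did, as given above. Without either sham array, calls over all probes tested rose from 0 as well. The part of the spread between the sham mice in the count was not tested.

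Transcripts with a published record were listed by topic and read from the comparison of IPC AAR with IPC RM. The hypoxia list holds a region of Ogt, the enzyme that adds O-linked N-acetylglucosamine to proteins, whose transcript is known to rise in hypoxic tumor cells. Levels of its + strand (CUST_473_PI426073487) were 6.56 and 6.62 in the AAR, 6.54 and 6.51 in the RM, and 6.22 and 5.89 in sham mice. The change from RM to AAR was 0.067 (SE 0.076, adjusted p = 0.502 by limma) and that from sham 0.54 (SE 0.18, adjusted p = 0.129), neither called. Its - strand (CUST_954_PI426073487) was well above background on 1 array of the RM alone.

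The 5 regions studied in heart development or growth, among them uc.4, uc.40 and the hypertrophy region, have 10 transcripts. Of these, 7 were tested and 1 was called, the lower - strand of the hypertrophy region (CUST_802_PI426073487), which passed the filter through the RM alone. Over all probes tested, 20.6% were called. The median change of the 7 was 0.41, beside 0.20 over all probes. Levels of CUST_455_PI426073487, a + strand probe, were 7.76 and 6.07 in the AAR and 5.64 and 5.55 in the RM, with the AAR mice far apart (change 1.32, SE 0.65, adjusted p = 0.175). The transcript uc.40- had a change of 0.50 and CUST_165_PI426073487, a + strand probe, of 0.67, both under the 2-fold limit. Neither uc.4- nor CUST_936_PI426073487, the - strand of the region with the AAR mice far apart, was above background on any array.

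The 4 listed regions in the genes of RNA-binding proteins (Tra2b, Cpeb4, Srsf3 and Pcbp2) have 8 transcripts, of which 7 were tested. Of the 7, 3 were lower, both strands of the Cpeb4 region and the + strand of the Srsf3 region. All 3 passed the filter through the RM alone, and over all probes tested 13.3% were lower. The median change of the 7 was -0.33. The changes of the Tra2b region were -0.33 on the + strand (CUST_136_PI426073487) and 0.18 on the - strand (CUST_617_PI426073487). Those of the Pcbp2 region were 0.96 on the + strand (CUST_336_PI426073487) and 0.72 on the - strand (CUST_817_PI426073487), and none of these 4 was called. The list was chosen with earlier results of these data known, and its share of calls is not set against other lists.

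The 7 regions studied in tumors, among them uc.63, uc.73 and uc.160, have 14 transcripts. Of these, 7 were above background on no array, 6 were tested and 0 were called by limma, with 2 at an unadjusted p below 0.05. Over all probes tested, 20.6% were called. The median change of the 6 was 0.43. The largest value was that of the + strand probe CUST_344_PI426073487, with 4.19 and 4.61 in the AAR and 3.54 and 3.35 in the RM (change 0.96, SE 0.19, adjusted p = 0.0268), just under 2-fold. It passed that limit under scaling to the 75th percentile, at 1.01, and without AAR 004, at 1.17.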

How the data were processed

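Each biopsy gave Cy3-labeled cRNA for 1 array, which the authors read with Agilent Feature Extraction (version 11.0.1.1 per the file headers). Intensity values were taken from the deposited processed signal of each spot, corrected for background within each array by the authors' software and not normalized between arrays. Sample titles gave the group and the mouse.

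Array controls were omitted, together with 20 probes marked as negative controls, and spots marked as outliers were set aside (17 to 29 per array), which left uc.47+, uc.53-, uc.183+ and uc.330+ without a value on an array. Fits that include such an array leave the transcript out. Log2 signals were quantile normalized over the 6 arrays, as in the methods (limma 3.58.1, R 4.3.3). Testing required that both arrays of 1 of the compared groups or more showed the probe well above background. The groups were fitted with lmFit and eBayes on their 4 arrays, with Benjamini-Hochberg adjustment over all probes tested, and calls needed an adjusted p below 0.05 with a fold above 2. The procedures were tested on simulated data. Where neither array of the dimmer group was well above background, the fold is a lower bound against the dimmest signals on those arrays that were. The number of arrays limits the precision.

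By the sample titles, an AAR and an RM array that share a number are of 1 mouse. The fit with the mouse as a block takes this pairing as given, and it was not checked here. The AAR difference of mouse 004 from mouse 008 correlated with their RM difference at -0.087 across 46232 probes and -0.14 across 497 transcripts (probes are not independent replicates).

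Named transcripts were the 10 largest calls in each direction, up to 5 regions called on both strands alike or oppositely, the 5 regions with the largest strand difference in each direction, the 5 brightest transcripts, up to 10 calls against sham, and the lists by topic, whose regions are given by probe identifier and host gene. A few others are named for context and were chosen after their values were seen. Members and lists were chosen with earlier results of these data known, and gene assignments of regions are background knowledge that the files do not hold. The alternatives were scaling to the 75th percentile, a stricter filter and no filter, all 6 arrays in 1 fit, the methods' t-test, normexp (offset 50), the mouse as a block, a weaker detection flag and each array left out. A table of the series has 6 columns of values whose names match no sample record, and these were not used.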

Additional observations from a re-analysis of the deposited data

How the results depend on the processing

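For IPC AAR against IPC RM, the 87 calls became 50 with the filter on all 4 arrays, 56 with all 6 arrays in 1 fit, 31 with normexp and 46 to 140 when 1 array was left out. The 21 higher calls became 11 with the methods' t-test, 4 with normexp and 5 to 57 with an array left out. The 66 lower calls became 29, 41 and 27 with the stricter filter, the 6-array fit and normexp, and 41 to 83 with an array left out. The higher calls made up 24.1% of all calls, and 42.0%, 12.9% and 10.9% with the stricter filter, with normexp and without RM 004. Over all probes tested 20.6% were called, and 18.6%, 17.2%, 10.9% and 15.1% with the stricter filter, the 6-array fit, normexp and the methods' t-test. With an array left out, calls over all probes moved in the same direction as those of the transcripts. Of 74 named values in this comparison, 35 kept sign and call in all alternatives.

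Between IPC AAR and sham AAR there were 24 calls, and 43 with scaling to the 75th percentile, 52 with all 6 arrays, 15 with normexp, 0 with no filter (203 at an unadjusted p below 0.05 in limma), 0 with the methods' t-test (78 unadjusted) and 0 to 106 with an array left out. For IPC RM against sham AAR, the 0 calls of limma (77 unadjusted) became 9 with all 6 arrays and 0 to 108 with an array left out.

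With the mouse as a replicate block, the pairs of strands called fell from 22 to 5 (39 unadjusted), and they were 0 to 50 with an array left out. The block gave 83 calls in place of 87 between IPC AAR and IPC RM and changed no named call there but those of uc.363+, uc.243+ and uc.416-. The weaker detection flag gave 573 and 506 transcripts in place of 360 and 288 for the IPC AAR and the sham AAR, and 45 one-strand regions in place of 74.

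Signs turned only for values that were not called. Scaling to the 75th percentile gave 0.37 for uc.84-, 0.68 for uc.465- and 0.47 for uc.141-, and normexp gave -0.095 for CUST_825_PI426073487. With an array left out, the change from RM to AAR spanned -0.60 to 0.081 for uc.394+, -0.047 to 0.042 for uc.465-, -0.84 to 0.23 for uc.40+, -0.23 to 1.08 for CUST_337_PI426073487 and -0.11 to 0.11 for CUST_825_PI426073487. The change from sham to RM spanned -0.30 to 0.43 for uc.333-, -0.28 to 0.50 for uc.456+ and -0.15 to 0.36 for uc.12-. Why these values depend on the setting was not tested, beyond the fewer arrays or probes that some settings use. Signal over background limits the dim transcripts, 462 of which could not be tested between AAR and RM.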
